A study of Mus musculus with 12 samples.

Results

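Mouse prostate tumours treated with an antibody against the growth factor CSF1 (anti-CSF1) were compared with tumours treated with control IgG, across all genes of a raw read count table. The comparison holds 3 anti-CSF1 and 3 IgG libraries, 6 of the 12 in the series, taken by the titles of the samples. Every tumour grew from 100000 cells of 1 prostate cancer line, PTE-82, which expresses TMPRSS2-ERG and was injected into the prostate of C57BL/6J mice, a strain with an intact immune system. Anti-CSF1 was given on days 9 and 14 after injection, and tumours were taken on day 17 after perfusion of the heart with PBS. Neither the antibody dose nor the days of IgG treatment could be read from the labels. The other 6 libraries are 3 of tumours treated with Lupron plus anti-CSF1 and 3 of tumours treated with Lupron, at 0.6 mg per mouse on day 4. Lupron is a GnRH agonist that lowers testosterone. Tumours of the 3 anti-CSF1 and 3 IgG libraries received no Lupron. The labels number the replicates without tying each to a mouse or litter, so p-values measure only the spread between these samples. Libraries are called tumours below, though the labels do not say that each is from a separate mouse.

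CSF1 is a growth and survival factor that acts through the receptor CSF1R, which is found mainly on monocytes and macrophages. A second ligand, IL-34, binds the same receptor. In tumours, CSF1 made by tumour and stromal cells recruits and maintains macrophages, and blocking it is a common way to lower their number. In bulk tissue, fewer macrophages and less of a transcript per macrophage cannot be told apart.

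The libraries differed in their content of normal tissue. Total counts ran from 22471098 to 29965355 in the anti-CSF1 libraries and from 23895555 to 26305733 in the IgG libraries. RNA integrity numbers ran from 8.8 to 9.8 in anti-CSF1 tumours and from 8.2 to 9.4 in IgG tumours. No pair of the 6 libraries looked like a duplicate, since chi-square per degree of freedom was at least 87.6 between them. The level of a gene list is given as its mean log2(CPM + 1), where CPM is the read count scaled to the TMM-adjusted size of the library. Smooth muscle genes stood at 5.06, 5.08 and 4.35 in anti-CSF1 replicates 1, 2 and 3, against 5.13, 7.10 and 8.90 in IgG replicates 1, 2 and 3. Luminal prostate genes had levels of 4.52, 3.62 and 3.34 in anti-CSF1 libraries, against 4.77, 6.22 and 7.57 in IgG libraries. IgG replicate 3 was thus the richest in normal prostate tissue and IgG replicate 2 the next. Cell cycle genes had a level of 2.83 in IgG replicate 3, while the other 5 libraries lay between 6.26 and 6.64. Sbp, a prostate secretory gene, took 4.82% of all counts in IgG replicate 3. Results are therefore given with all libraries and without IgG replicate 3, which leaves 2 IgG libraries. Erg was present in all 6 tumours, at 16.6, 17.3 and 22.3 CPM in anti-CSF1 libraries and at 16.3, 11.6 and 7.97 CPM in IgG libraries. Erg is also on the list of endothelium genes, and these counts cannot be assigned to tumour or endothelial cells.

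**Figure D1:**
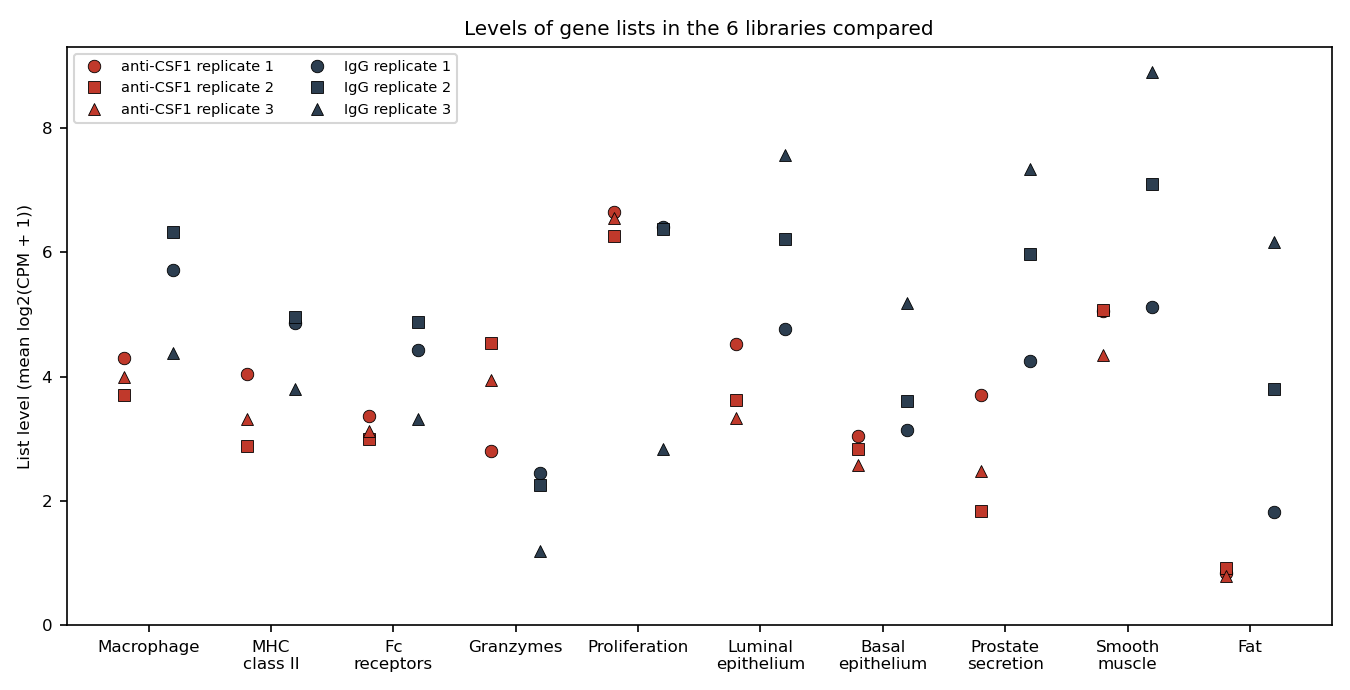
Levels of 10 gene lists (y axis, mean log2 of CPM plus 1) in the 3 anti-CSF1 libraries (red, left) and the 3 IgG libraries (dark, right), with circles, squares and triangles for replicates 1, 2 and 3. The macrophage level lies between 3.71 and 4.29 in anti-CSF1 libraries and between 4.38 and 6.33 in IgG libraries, while IgG replicate 3 is highest for the 5 lists of normal tissue and lowest for cell cycle genes.

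With all libraries fitted, 1 gene of 15082 tested was called, meaning a Benjamini-Hochberg adjusted p under 0.05 in edgeR's quasi-likelihood test, and it was lower (0.00663% of genes tested). The gene was Fcna, which encodes ficolin A, a lectin of the complement system made by macrophages. It had 0.508, 0.519 and 0.495 CPM in anti-CSF1 tumours, against 6.40, 24.3 and 32.3 CPM in IgG tumours. The groups were far apart, and the IgG libraries ran in the order of their smooth muscle levels, with replicate 1 lowest. The log2 fold change was -5.36 ± 0.56 (standard error; adjusted p = 0.0153). No gene was called higher in this edgeR fit. At an unadjusted p under 0.05, 2525 genes were lower (16.7%) and 921 higher (6.11%). DESeq2 called 1616 genes lower and 225 higher on the same libraries.

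Without IgG replicate 3, 170 genes were called and all were lower (1.13% of genes tested). The biological coefficient of variation was 0.374 without that library and 0.471 with it. At an unadjusted p under 0.05, 1518 genes were lower (10.1%) and 487 higher (3.23%). The smallest adjusted p among genes with a positive estimate was 0.0579. DESeq2 called 649 genes lower and 75 higher, and its calls included all 170 of edgeR's. All 170 had a negative estimate with IgG replicate 3 in the fit, where their median log2 fold change was -1.84, against -2.18 without it. In 133 of the 170, IgG replicate 3 was the lowest of the IgG libraries, as it was in 42.5% of all genes tested. The anti-CSF1 libraries stayed below all 3 IgG libraries in 96 of the 170, and in 12.8% of all genes. The 170 calls drew on the spread of all 4 groups: with only the 2 groups compared, 1 gene was called, outside the 170. Leaving out anti-CSF1 replicate 3 gave 44 calls, and leaving out anti-CSF1 replicate 2 gave 82. The count rested on IgG replicate 2: without IgG replicates 2 and 3, with a single IgG library whose spread was taken to be like that of the other groups, 4 genes were called.

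Those 4 genes were Fcna, Itgam, Hpgds and Cd72. Itgam encodes the alpha chain of the integrin and complement receptor CD11b of myeloid cells. It stood at 8.97, 7.31 and 7.32 CPM in anti-CSF1 tumours, against 45.9, 86.9 and 25.3 CPM in IgG tumours, with a log2 fold change of -3.07 ± 0.29 without IgG replicate 3 (adjusted p = 0.00276). Hpgds, the haematopoietic prostaglandin D synthase, had 1.29, 1.23 and 1.20 CPM in anti-CSF1 tumours and 9.13, 13.3 and 3.86 CPM in IgG tumours. Its log2 fold change was -3.17 ± 0.31 (adjusted p = 0.00276). In both genes the lowest IgG library, replicate 3, was still above every anti-CSF1 library. Cd72 encodes a lectin of B cells and macrophages. It was measured at 7.25, 4.06 and 4.00 CPM in anti-CSF1 tumours, against 34.6, 63.6 and 2.62 CPM in IgG tumours, so that the groups overlapped through IgG replicate 3. The log2 fold change of Cd72 was -3.26 ± 0.33 without that library (adjusted p = 0.00276). Cd72 was named after its values were seen.

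Promoters of Fcna, Itgam and Hpgds, called lower with and without IgG replicate 2 once replicate 3 was left out, are shown with those of the complement genes C1qb and C1qc. The sequences are from RefSeq (GRCm38.p6), run from 250 bases before to 50 after the start that RefSeq's promoter table takes for each gene, and are written 5′ to 3′ on the gene's strand. For Fcna, Hpgds and C1qc that start lies inside the widest extent that RefSeq gives the gene, so other starts of these genes are not covered. Capitals mark GAGGAAG, a core motif of PU.1, the myeloid transcription factor encoded by Spi1, or its reverse complement CTTCCTC. Fcna (chr2:25627925-25628224, minus strand) held 3 matches, of which 2 share 1 base. Itgam (chr7:128062390-128062689, plus strand) held 1 match on each strand, Hpgds (chr6:65144681-65144980, minus strand) held 1, C1qc (chr4:136892865-136893164, minus strand) held 1 on the other strand, and C1qb (chr4:136886151-136886450, minus strand) held none. On either strand the motif was in 51 of the 134 called genes with a promoter sequence (38.1%), in 1910 of 11854 tested genes with one (16.1%), and in 13.6% of all 32851 promoters. A match is a string of letters and no measurement of binding.
Fcna: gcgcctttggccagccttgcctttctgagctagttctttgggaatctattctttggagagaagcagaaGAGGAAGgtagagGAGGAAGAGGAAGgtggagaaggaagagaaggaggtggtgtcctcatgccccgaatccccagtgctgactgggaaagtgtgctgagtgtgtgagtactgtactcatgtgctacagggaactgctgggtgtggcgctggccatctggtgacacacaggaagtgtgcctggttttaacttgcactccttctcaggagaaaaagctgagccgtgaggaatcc
Itgam: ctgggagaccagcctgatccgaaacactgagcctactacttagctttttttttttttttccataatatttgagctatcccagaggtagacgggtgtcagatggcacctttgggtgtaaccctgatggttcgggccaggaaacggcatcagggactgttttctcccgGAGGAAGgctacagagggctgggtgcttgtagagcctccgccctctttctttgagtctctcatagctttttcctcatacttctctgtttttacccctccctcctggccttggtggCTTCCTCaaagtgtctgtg
Hpgds: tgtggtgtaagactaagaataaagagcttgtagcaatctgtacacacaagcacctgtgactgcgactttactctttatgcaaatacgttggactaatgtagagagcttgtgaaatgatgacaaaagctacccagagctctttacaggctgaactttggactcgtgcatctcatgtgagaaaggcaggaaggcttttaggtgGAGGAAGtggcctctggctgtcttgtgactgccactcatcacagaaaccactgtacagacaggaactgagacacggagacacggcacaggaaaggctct
C1qb: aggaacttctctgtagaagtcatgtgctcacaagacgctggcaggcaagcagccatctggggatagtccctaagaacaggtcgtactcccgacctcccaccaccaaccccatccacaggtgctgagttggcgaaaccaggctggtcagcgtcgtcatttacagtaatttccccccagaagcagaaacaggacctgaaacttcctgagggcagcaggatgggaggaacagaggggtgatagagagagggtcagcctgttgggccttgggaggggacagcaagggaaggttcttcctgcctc
C1qc: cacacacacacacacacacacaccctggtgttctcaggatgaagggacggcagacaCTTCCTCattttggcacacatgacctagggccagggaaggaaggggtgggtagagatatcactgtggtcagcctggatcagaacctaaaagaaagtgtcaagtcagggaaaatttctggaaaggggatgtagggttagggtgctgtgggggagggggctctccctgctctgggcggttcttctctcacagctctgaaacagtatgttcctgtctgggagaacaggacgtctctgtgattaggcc

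Of the genes of the CSF pathway, 2 receptor genes were called lower without IgG replicate 3. The receptor gene Csf1r stood at 27.0, 10.8 and 25.2 CPM in anti-CSF1 tumours, against 112, 147 and 51.7 CPM in IgG tumours. All anti-CSF1 libraries were below all IgG libraries, and the log2 fold change was -2.62 ± 0.36 without IgG replicate 3 (adjusted p = 0.00648) and -2.30 ± 0.43 with it (adjusted p = 0.0875). The ligand gene Csf1 had 73.2, 35.8 and 75.7 CPM in anti-CSF1 tumours and 72.4, 109 and 33.5 CPM in IgG tumours. The groups overlapped for Csf1 and its estimate was -0.56 ± 0.42 without IgG replicate 3 (adjusted p = 0.634). Il34, the second ligand, likewise did not pass (adjusted p = 0.786). Csf2ra, the alpha chain of the GM-CSF receptor, was at 15.0, 19.7 and 18.6 CPM in anti-CSF1 tumours, against 49.8, 64.0 and 42.2 CPM in IgG tumours, and fell by 1.68 ± 0.19 on the log2 scale without IgG replicate 3 (adjusted p = 0.0039). Csf2rb, its signalling chain, had an estimate of -0.81 ± 0.26 (adjusted p = 0.199). Of 9 genes tested on the list of myeloid growth factors and receptors, Csf1r and Csf2ra were the 2 called, against 1.13% of all genes.

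**Figure D2:**
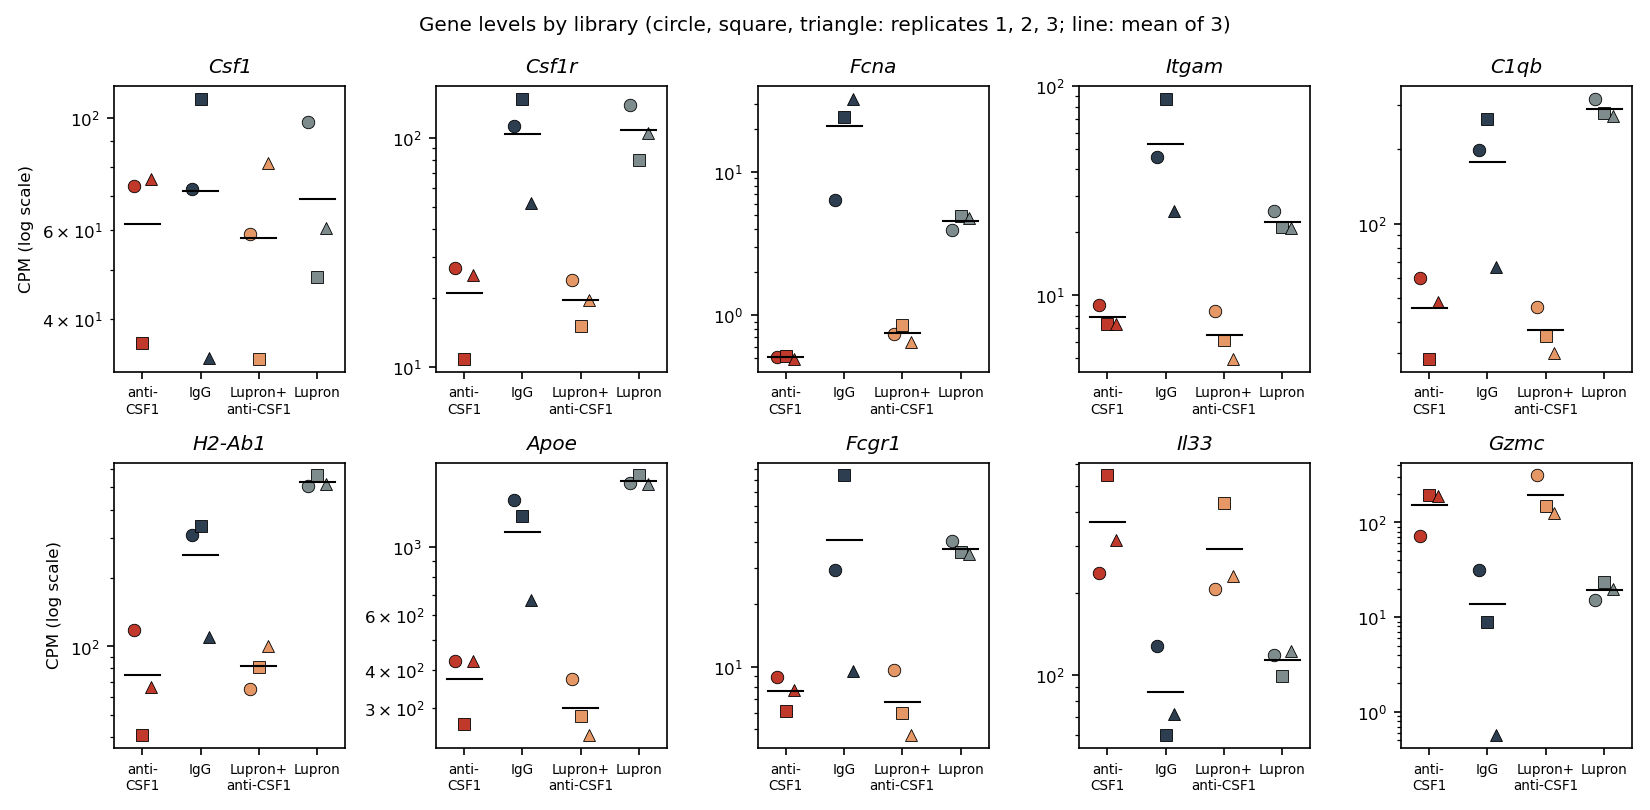
CPM (log axis) of 10 genes in each library of the 4 groups; symbols mark replicates 1 to 3 and the line is the mean of 3. Csf1r, Fcna, Itgam and Apoe lie lower in all anti-CSF1 than in all IgG libraries, Csf1 overlaps, and Il33 and Gzmc lie higher in all anti-CSF1 libraries.

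Macrophage genes were lower as a group. All 30 on the list had a negative estimate in both fits, where 49.1% of all genes did with all libraries and 46.9% without IgG replicate 3. Without that library 23 of the 30 were called lower, against 1.13% of all genes, and 29 were lower in all 3 anti-CSF1 libraries than in both IgG libraries, against 15.9% of all genes. The median log2 fold change of the list was -2.14 without IgG replicate 3 and -1.77 with it, beside 0.03 and 0.01 over all genes. In the fit with all libraries none of the 30 was called, and 27 were lower at an unadjusted p under 0.05 (16.7% of all genes). DESeq2 called 25 of the 30, and 12 did not overlap (12.8% of all genes). With IgG replicate 1 as the only IgG library, 1 of the 30 was called, all 30 remained negative and the median was -1.88. The level of the list in IgG replicate 3, 4.38, was closer to the anti-CSF1 libraries (4.29, 3.71 and 4.00) than to IgG replicates 1 and 2 (5.71 and 6.33).

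Among the identity genes, Emr1, which encodes the surface marker F4/80, had 12.5, 3.44 and 8.63 CPM in anti-CSF1 tumours and 48.3, 104 and 21.5 CPM in IgG tumours. It fell by 3.21 ± 0.47 on the log2 scale without IgG replicate 3 (adjusted p = 0.00851). Mrc1, the mannose receptor gene, was at 27.9, 12.0 and 21.5 CPM in anti-CSF1 tumours, against 61.1, 138 and 81.6 CPM in IgG tumours. Here IgG replicate 3 lay between the other IgG libraries, and the log2 fold change was -2.28 ± 0.37 without it (adjusted p = 0.0132). Siglec1, a sialic acid binding lectin of macrophages, fell by 3.94 ± 0.60 (adjusted p = 0.00924), the lowest estimate of the list. Msr1, Aif1 and Cd68 fell by 2.35, 2.53 and 2.11 on the same scale. The 7 genes of the list that were not called had estimates from -0.29 ± 0.20 for Mertk, an efferocytosis receptor, to -2.47 ± 0.58 for Trem2, a lipid-sensing receptor. Both named genes were chosen as the ends of that range.

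**Figure D3:**
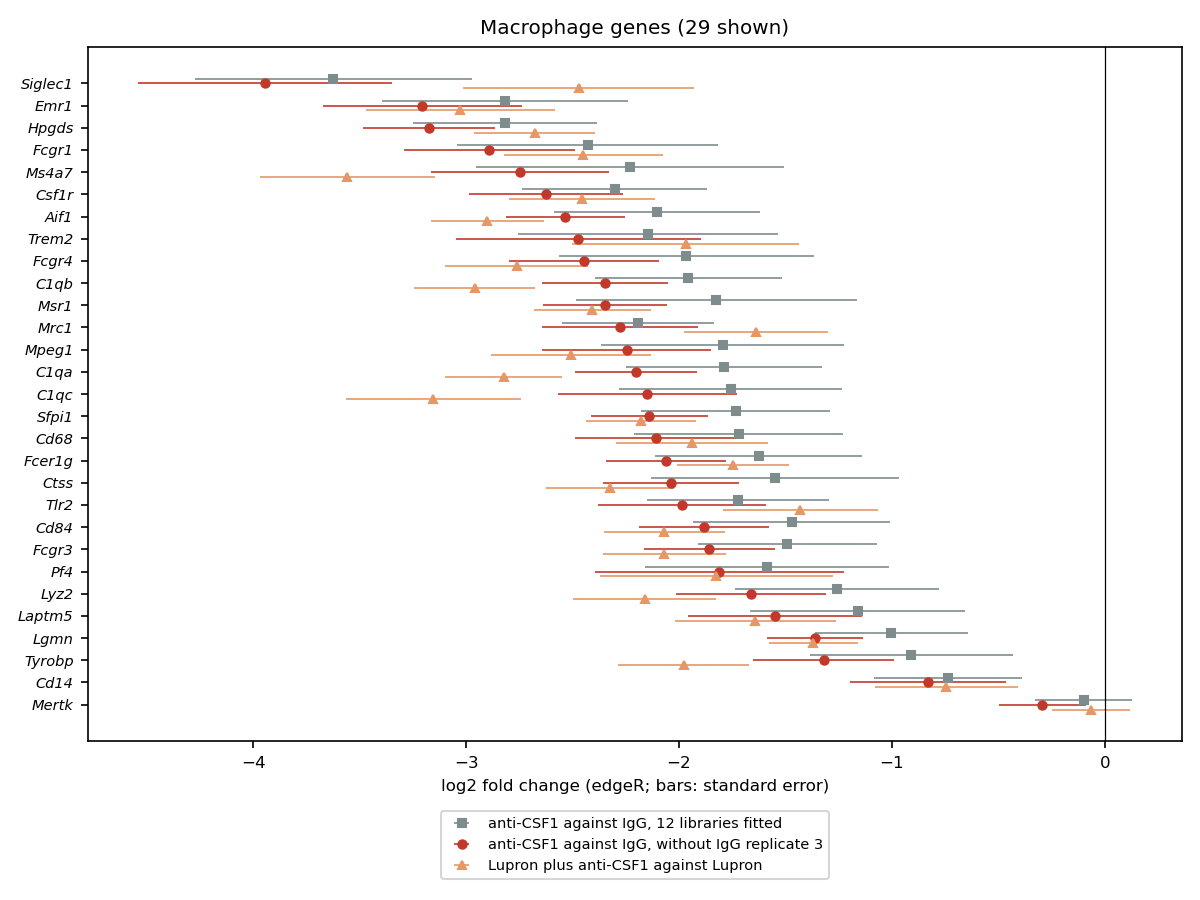
Log2 fold changes (x axis; bars are standard errors) of 29 of the 30 macrophage genes for anti-CSF1 against IgG with all 12 libraries fitted (squares), without IgG replicate 3 (circles), and for Lupron plus anti-CSF1 against Lupron (triangles). All points lie below 0 and Mertk is closest to it.

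Transcription factors of macrophages were called in 3 of 17 genes tested without IgG replicate 3, all lower, against 1.13% of all genes. None of the 17 was called by edgeR with all libraries. Sfpi1, the table's name for Spi1, which encodes PU.1, had 11.0, 6.04 and 7.78 CPM in anti-CSF1 tumours and 29.7, 43.5 and 9.60 CPM in IgG tumours. IgG replicate 3 was inside the anti-CSF1 range for Sfpi1, and its log2 fold change without that library was -2.14 ± 0.27 (adjusted p = 0.0051). Irf5 fell by 1.53 ± 0.32 (adjusted p = 0.0487), and Maf had an estimate of -1.16 ± 0.27 (adjusted p = 0.0714).

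Genes of opsonisation and pathogen sensing were called lower on each of 3 lists, read here without IgG replicate 3 and against 1.13% of all genes called lower. Of 24 complement genes tested, 7 were called: Itgam, C1qa, C1qb, C1qc, properdin (Cfp) and the anaphylatoxin receptor genes C3ar1 and C5ar1. C1qb, a chain of the first component of the classical pathway, had 60.0, 28.4 and 48.2 CPM in anti-CSF1 tumours and 199, 265 and 66.5 CPM in IgG tumours. Its log2 fold change was -2.35 ± 0.29 (adjusted p = 0.0051), with C1qa at -2.20 and C1qc at -2.15. All 14 genes of Fc receptors and their adaptors had negative estimates, and 7 were called. Fcgr1, the high-affinity IgG receptor, was at 8.94, 6.09 and 7.75 CPM in anti-CSF1 tumours, against 29.2, 84.0 and 9.50 CPM in IgG tumours (log2 fold change -2.89 ± 0.40, adjusted p = 0.0065). Fcgr2b, the inhibitory receptor, fell by 1.89, Fcgr3 by 1.86, Fcgr4 by 2.45 and the shared signalling chain Fcer1g by 2.06. The phosphatase gene Inpp5d, a brake on Fc receptor signalling, was also called. Of 20 genes of Toll-like receptors and their partners, Tlr2, Tlr5, Tlr7, Tlr9, Tlr13, Ly86 and Cd180 were called. Among the IgG libraries, Tlr5 was highest in replicate 3, the richest in normal prostate tissue, while the others called were lowest there. Tlr13, which senses bacterial ribosomal RNA in mice, had 4.16, 2.59 and 2.65 CPM in anti-CSF1 tumours and 13.7, 31.5 and 2.80 CPM in IgG tumours, so IgG replicate 3 met the anti-CSF1 range. Lists share genes, and 59 of the 170 called genes were on at least 1 list.

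Lectins and scavenger receptors of tissue-resident macrophages were called lower in 4 of 19 genes tested without IgG replicate 3, against 1.13% of all genes. The 4 were Fcna, Cd209f, Folr2 and Cbr2. They had at most 1.02 CPM in any anti-CSF1 library, and their IgG libraries ran in a different order from that of the macrophage list. Cd209f, a C-type lectin gene, had no count in any anti-CSF1 library, against 1.25, 14.2 and 20.9 CPM in IgG tumours. Taking 3 counts over the group as the limit, it was at least 203-fold lower without IgG replicate 3 (adjusted p = 0.0236). Folr2, a folate receptor gene, had 1.02, 0.142 and 0.566 CPM in anti-CSF1 tumours and 3.86, 19.9 and 19.7 CPM in IgG tumours. Cbr2, a carbonyl reductase gene, was at 0.203, 0.472 and 0.0708 CPM in anti-CSF1 tumours, against 7.50, 26.8 and 639 CPM in IgG tumours. For Fcna, Cd209f and Cbr2 the IgG libraries ran in the order of their smooth muscle and luminal levels, with replicate 1 lowest and replicate 3 highest. The part of normal tissue in these 4 differences was not tested. Cd163, a haemoglobin scavenger receptor, had 2.95, 4.39 and 4.39 CPM in anti-CSF1 tumours and 7.08, 23.2 and 37.2 CPM in IgG tumours (adjusted p = 0.0526 without IgG replicate 3).

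All 11 MHC class II genes had a negative estimate without IgG replicate 3, where 46.9% of all genes did. Of the 11, 6 were called lower, against 1.13% of all genes: H2-Aa, H2-Ab1, H2-Eb1, H2-DMa, H2-DMb1 and Ciita, the class II transactivator. H2-Ab1 was at 118, 40.7 and 66.2 CPM in anti-CSF1 tumours, against 308, 338 and 110 CPM in IgG tumours. IgG replicate 3 fell inside the anti-CSF1 range for this gene, and the log2 fold change without it was -2.11 ± 0.36 (adjusted p = 0.0172). Ciita had 7.25, 3.11 and 4.35 CPM in anti-CSF1 tumours and 19.0, 21.6 and 8.58 CPM in IgG tumours (-2.04 ± 0.31, adjusted p = 0.00924). None of the 14 MHC class I genes was called by edgeR without IgG replicate 3, none had an unadjusted p under 0.05, and the median was 0.05. Class II genes are also expressed by dendritic cells and B cells. None of 15 dendritic cell genes was called by edgeR, and the median was -0.68. Of the 15, 4 were lower at an unadjusted p under 0.05, where 10.1% of all genes were. None of 13 B cell genes was called by edgeR, and the median was -1.48. Of the 13, 6 were lower at an unadjusted p under 0.05, against the same 10.1%.

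Monocyte and chemokine genes are read here without IgG replicate 3 and against 1.13% of all genes called lower. Of 14 monocyte genes, Cx3cr1 and Cd300ld were called lower. Cx3cr1, the fractalkine receptor gene of patrolling monocytes and macrophages, had 9.72, 2.22 and 6.51 CPM in anti-CSF1 tumours and 34.7, 48.4 and 4.11 CPM in IgG tumours, with IgG replicate 3 inside the anti-CSF1 range (log2 fold change -2.75 ± 0.47 without it, adjusted p = 0.0174). Ccr2, the receptor of classical monocytes, stood at 10.7, 9.76 and 10.5 CPM in anti-CSF1 tumours, against 20.9, 78.6 and 22.6 CPM in IgG tumours. The groups did not overlap for Ccr2, yet IgG replicate 2 was far above the others and the gene did not pass (-2.26 ± 0.53, adjusted p = 0.0742). Of 20 CC chemokine and receptor genes, 3 were called lower, among them the monocyte attractant Ccl12, by 2.98 on the log2 scale, and the receptor gene Ccr1, by 1.84. Cxcl16, a lipoprotein-binding chemokine, fell by 1.38 ± 0.20 (adjusted p = 0.00924), and together with Cx3cr1 made up the calls among 18 CXC and CX3C genes. No neutrophil gene of 11 tested was called by edgeR, and 1 was higher at an unadjusted p under 0.05, where 3.23% of all genes were.

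Of 23 T cell genes 1 was called lower, where 1.13% of all genes were, and the median of the list was -0.52. The gene was Cd4, the coreceptor of helper T cells that mouse macrophages can also express at low levels, at 3.32, 2.03 and 2.80 CPM in anti-CSF1 tumours, against 8.14, 11.1 and 3.65 CPM in IgG tumours (log2 fold change -1.82 ± 0.29 without IgG replicate 3, adjusted p = 0.0128). Of 20 checkpoint and costimulatory genes, Icosl, the ligand of the T cell receptor ICOS, was the 1 called, lower by 2.24 ± 0.39 (adjusted p = 0.0208). Unlike Cd4, Icosl was highest among the IgG libraries in replicate 3, the richest in normal prostate tissue. The part of normal tissue in its difference was not tested. Cd86 had an estimate of -1.34 ± 0.32 (adjusted p = 0.0751).

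Most granzyme genes had positive estimates, and whether they passed depended on the tool. Of 14 genes of granzymes, perforin and granzyme-inhibiting serpins, 12 had a positive estimate without IgG replicate 3. At an unadjusted p under 0.05, 8 of them were higher (3.23% of all genes), and 10 were higher in all anti-CSF1 libraries (13.4% of all genes). None was called by edgeR, while DESeq2 called 5 higher: Gzmb, Gzmc, Gzmd, Gzme and Gzmg. Gzmc had 71.9, 196 and 188 CPM in anti-CSF1 tumours and 31.8, 8.85 and 0.567 CPM in IgG tumours. The groups did not overlap, and the log2 fold change was 2.89 ± 0.65 (adjusted p = 0.0658). Gzmb was at 20.3, 42.9 and 33.8 CPM in anti-CSF1 tumours, against 16.2, 11.1 and 0.850 CPM in IgG tumours (1.24 ± 0.38, adjusted p = 0.173). Gzmd had 6.57, 179 and 65.0 CPM in anti-CSF1 tumours and 2.46, 0.706 and 0 CPM in IgG tumours. Anti-CSF1 replicate 2 was highest and replicate 1 lowest for Gzmd, and also for Gzme, Gzmf and Gzmg, of which Gzmg had the smallest adjusted p (0.225). These genes lie together on chromosome 14, from Gzme (chr14:56117619-56120625) to Gzmb (chr14:56258836-56262334), and their transcripts are much alike: Gzmd matched Gzme in 94.8% of aligned bases, Gzmg in 90.5% and Gzmf in 87.6%. The longest run shared by Gzmd and Gzmg was 101 bases, so counts of Gzmd, Gzme, Gzmf and Gzmg are uncertain one against another. Gzmc matched these 4 in 76.2% to 77.3%. Gzma, on chromosome 13, overlapped between groups, with 7.08, 18.3 and 6.16 CPM in anti-CSF1 tumours and 5.45, 12.3 and 2.06 CPM in IgG tumours. Of 19 natural killer and cytotoxic cell genes none was called by edgeR and 3 were higher at an unadjusted p under 0.05, Gzmb and Prf1 among them.

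The 10 genes with the smallest p among those with a positive estimate, no overlap and a mean of at least 1 CPM were Scg2, Gzmc, Slc12a1, Il33, Pla1a, Ogdhl, Btc, Bambi, Creld1 and Enkd1. None passed in edgeR without IgG replicate 3. DESeq2, which called 75 genes higher on these libraries, called all 10, with adjusted p between 1.85e-05 for Gzmc and 0.00876 for Bambi. The 10 were picked by their p in the same libraries, so DESeq2's calls are no separate support for them. Il33, an alarmin of the interleukin 1 family released by damaged stromal and epithelial cells, had 239, 545 and 315 CPM in anti-CSF1 tumours and 128, 59.8 and 71.6 CPM in IgG tumours. Every anti-CSF1 library was above every IgG library, with a log2 fold change of 1.96 ± 0.46 without IgG replicate 3 (adjusted p = 0.073) and 2.08 ± 0.40 with it (adjusted p = 0.0875). Scg2, which encodes secretogranin II of neuroendocrine granules, was at 18.4, 35.0 and 21.8 CPM in anti-CSF1 tumours, against 4.70, 1.29 and 0.319 CPM in IgG tumours (3.05 ± 0.68, adjusted p = 0.0619). Btc, an EGF family ligand, had 13.4, 16.2 and 12.4 CPM in anti-CSF1 tumours and 5.76, 2.24 and 2.94 CPM in IgG tumours (1.80 ± 0.46, adjusted p = 0.106). Genes became callable in this direction when IgG replicate 1 was left out: 213 were then called higher with IgG replicate 2 as the single IgG library, and 828 with IgG replicates 2 and 3.

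The title of the series names cholesterol from macrophages, so genes of cholesterol handling and synthesis were set apart. Of 24 genes of uptake, storage, transport and efflux, Apoe, Apoc1, Abca1 and Msr1 were called lower without IgG replicate 3, against 1.13% of all genes. None of the 24 was called by edgeR with all libraries. Apoe, the main apolipoprotein secreted by macrophages, had 428, 267 and 427 CPM in anti-CSF1 tumours and 1423, 1263 and 671 CPM in IgG tumours. All anti-CSF1 libraries were below IgG replicate 3, the lowest of its group, and the log2 fold change was -1.85 ± 0.28 without that library (adjusted p = 0.00924). Abca1, the cholesterol exporter, was at 48.6, 42.6 and 46.1 CPM in anti-CSF1 tumours, against 80.4, 107 and 180 CPM in IgG tumours. It fell by 1.03 ± 0.21 (adjusted p = 0.0376), the smallest change among the 170, and was highest in IgG replicate 3. Apoc1, an apolipoprotein, ran in the order of the fat and prostate levels of the IgG libraries, at 0.406, 0 and 0.142 CPM in anti-CSF1 tumours, against 4.43, 26.9 and 117 CPM in IgG tumours. Of 24 genes of cholesterol synthesis, 22 had a positive estimate without IgG replicate 3, where 46.9% of all genes had a negative one, and the median was 0.23. None was called by edgeR and 1 was higher at an unadjusted p under 0.05, where 3.23% of all genes were. With IgG replicate 1 as the single IgG library, 9 of the 24 estimates were negative and the median was 0.04 (anti-CSF1 against IgG).

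**Figure D4:**
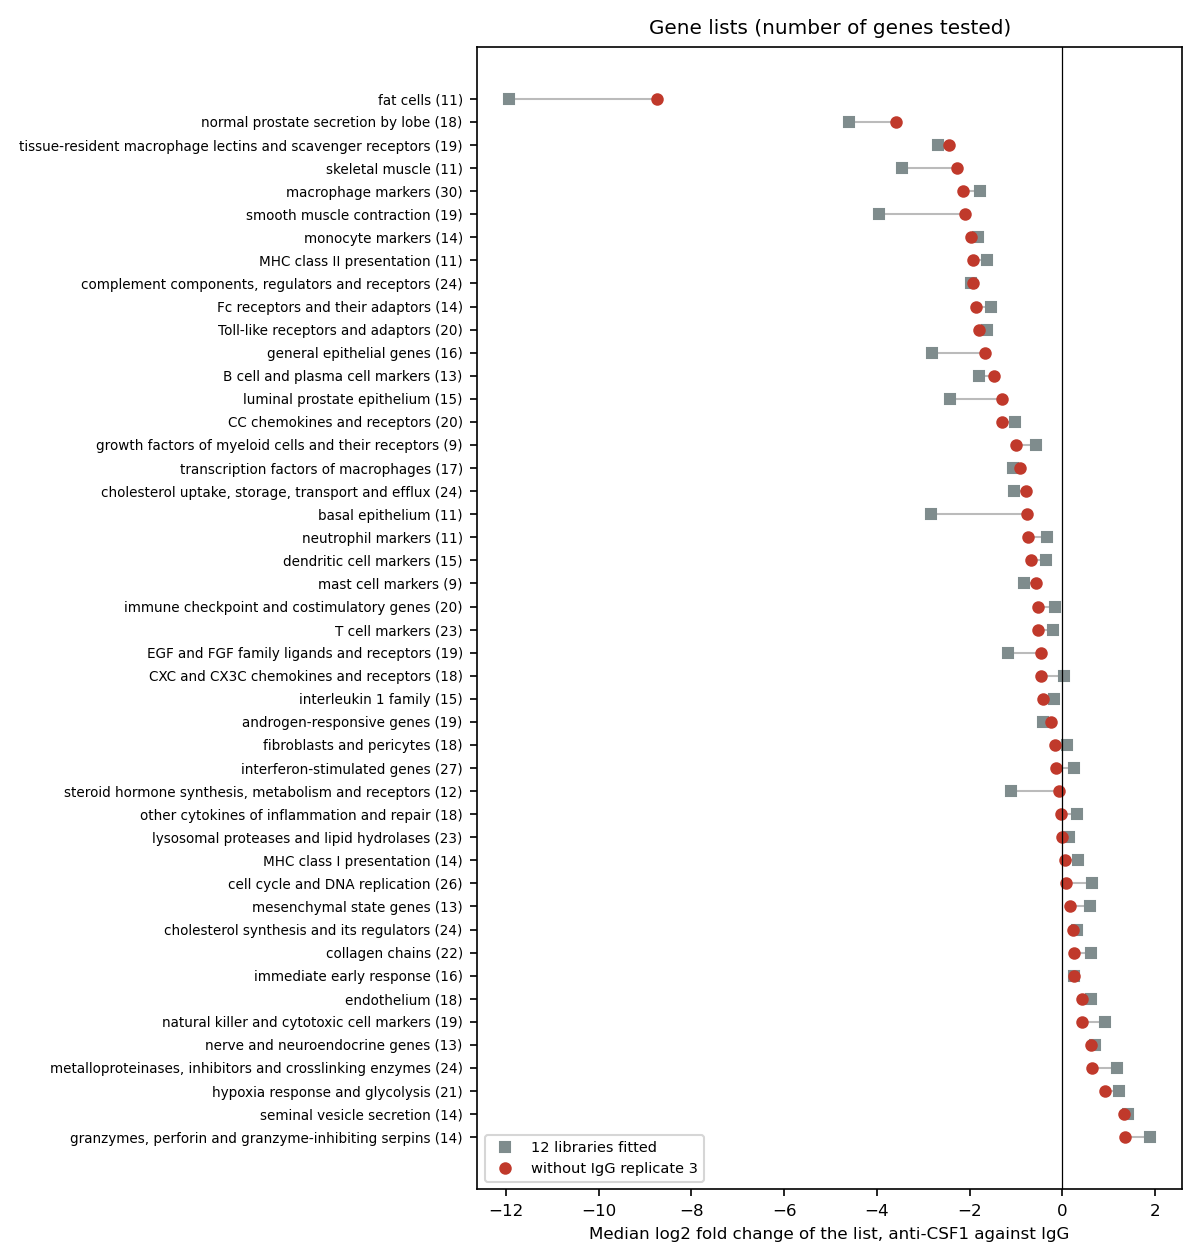
Median log2 fold change (x axis) of each gene list for anti-CSF1 against IgG with all 12 libraries fitted (grey squares) and without IgG replicate 3 (red circles); the number of genes tested is in brackets. Macrophage, MHC class II, Fc receptor and complement lists lie between -1.54 and -1.97 with all libraries. Without IgG replicate 3 they lie between -1.87 and -2.14, while fat, smooth muscle, epithelial and basal lists move toward 0.

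Genes of normal prostate, smooth muscle and fat had low medians and gave no call in edgeR's fits with all libraries and without IgG replicate 3. The median log2 fold change of smooth muscle genes was -2.11 without IgG replicate 3 and -3.95 with it, and that of prostate secretion genes -3.58 without and -4.60 with it. For fat genes it was -8.75 and -11.92, or -5.84 and -8.96 with genes absent from anti-CSF1 tumours set at the limit of 3 counts. In edgeR none of the 18 prostate secretion, 19 smooth muscle, 15 luminal, 11 basal or 11 fat genes was called without IgG replicate 3. At an unadjusted p under 0.05, 12, 12, 8, 2 and 10 of them were nevertheless lower, against 10.1% of all genes. Some, such as Car3, Tmprss2, Spint1 and Trp63, were called lower in a few alternative settings without IgG replicate 3. Myh11, smooth muscle myosin, had 112, 75.5 and 38.9 CPM in anti-CSF1 tumours and 153, 1016 and 5953 CPM in IgG tumours. The fat gene Car3 was at 0.102, 0 and 0 CPM in anti-CSF1 tumours, against 10.1, 187 and 1266 CPM in IgG tumours. For both genes every IgG library was above every anti-CSF1 library, with replicate 1 the closest and replicate 3 the highest. Seminal vesicle genes took 10.3%, 5.12% and 0.0840% of counts in anti-CSF1 replicates 1, 2 and 3, against 1.45%, 13.3% and 1.05% in IgG replicates 1, 2 and 3, with no order by group.

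Cell cycle and interferon genes showed small differences once IgG replicate 3 was left out. The 26 cell cycle and DNA replication genes had a median of 0.09, against 0.63 with that library, and none was called by edgeR or had an unadjusted p under 0.05 without it. Interferon-stimulated genes had a median of -0.15 without IgG replicate 3 and 0.24 with it, so the sign depended on that library. None of the 27 was called by edgeR, and 2 were lower at an unadjusted p under 0.05 without IgG replicate 3, where 10.1% of all genes were.

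The same antibody was given with Lupron in another group of 3 libraries, none of them part of the comparison. In the fit without IgG replicate 3, Lupron plus anti-CSF1 against Lupron gave 208 genes called lower (1.38%) and 2 called higher (0.0133%), and 130 genes were called in both comparisons, 76.5% of the 170 and 61.9% of the 210. Both comparisons came from the same fit and share its estimate of the spread. Of the 170 genes, 159 were lower in all tumours with Lupron plus anti-CSF1 than in all with Lupron (6.93% of all genes). The macrophage list had 23 of 30 called there, with a median of -2.21. Csf1r had 23.9, 15.0 and 19.7 CPM in tumours given Lupron plus anti-CSF1, against 138, 80.1 and 105 CPM in Lupron tumours (log2 fold change -2.46 ± 0.34, adjusted p = 0.00424). The 2 genes called higher were Gzmc, by 3.33 ± 0.56 (adjusted p = 0.0134), and Gzmb, by 1.72 ± 0.34 (adjusted p = 0.0282); neither overlapped between those groups, as was so for 5.86% of all genes in that direction. With all libraries fitted, edgeR called no gene in the Lupron comparison, 642 had an unadjusted p under 0.05, and DESeq2 called 235.

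How far a called gene moved in the Lupron comparison went with where IgG replicate 3 stood. Over all genes tested, that library was the lowest IgG library in 42.5%, the highest in 40.5% and in between in 16.9%. Of the 133 called genes in which it was the lowest, 121 were also called with Lupron, and the medians were -2.13 without Lupron and -2.20 with it. Of the 22 in which it was the highest, 4 were called with Lupron, with medians of -3.34 without Lupron and -1.10 with it. Of the 15 in between, 5 were called, with medians of -2.91 and -1.50. Over all genes tested, 1.38% were called lower with Lupron, a smaller share than in each of these sets. Among the 22 was Anxa13, an epithelial annexin gene, at 0.0339, 0 and 0.106 CPM in anti-CSF1 tumours, against 6.63, 17.6 and 60.2 CPM in IgG tumours. Its log2 fold change was -7.79 ± 1.15 without Lupron (adjusted p = 0.00924) and 0.49 ± 0.77 with it (adjusted p = 0.983). Nnat, Sult1e1, Ly6f and Apoc1 likewise had positive estimates with Lupron, from 0.78 to 1.56, and did not pass there.

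**Figure D5:**
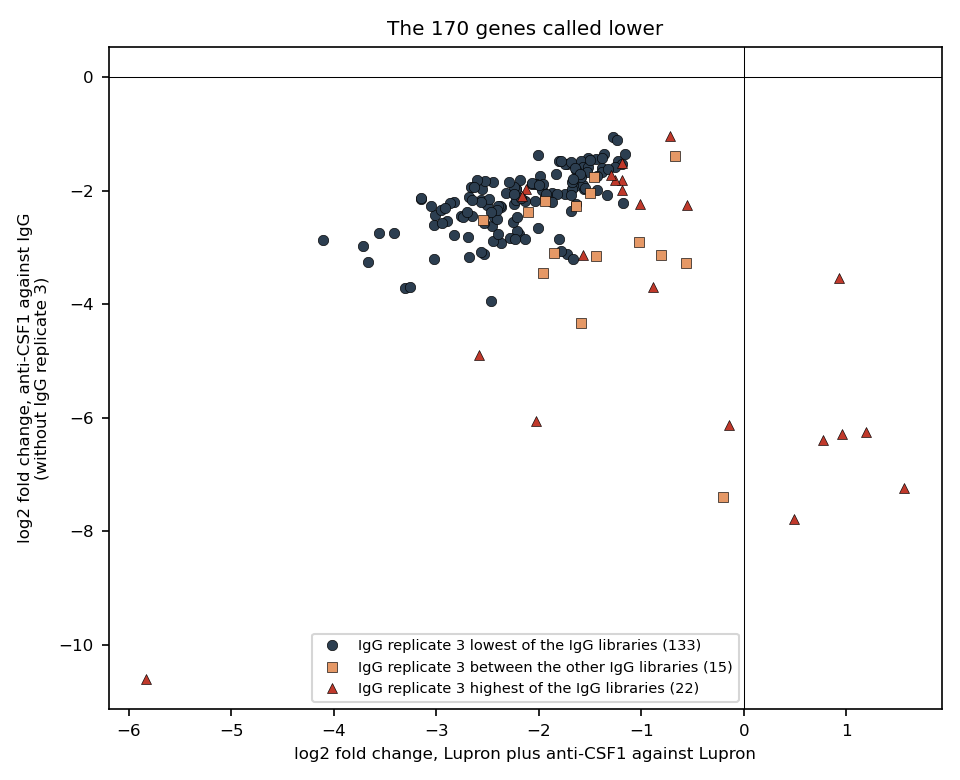
Log2 fold changes of the 170 genes called lower without IgG replicate 3 (y axis, anti-CSF1 against IgG; x axis, Lupron plus anti-CSF1 against Lupron), by the place of IgG replicate 3 among the IgG libraries. The 133 genes in which it is lowest (circles) all lie below 0 on both axes, and the genes above 0 on the x axis are among the 22 in which it is highest (triangles).

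The difference between the antibody's effect without and with Lupron was tested directly. No gene was called by edgeR with all libraries (smallest adjusted p 0.488, 1021 genes at an unadjusted p under 0.05, 188 called by DESeq2) or without IgG replicate 3 (533 genes at an unadjusted p under 0.05). Fcna had a difference of -2.76 with all libraries (unadjusted p = 0.00201) and -2.31 ± 0.66 without IgG replicate 3 (unadjusted p = 0.00449). It stood at 0.740, 0.849 and 0.651 CPM in tumours given Lupron plus anti-CSF1, against 3.90, 4.91 and 4.74 CPM in Lupron tumours, a change of -2.59 ± 0.46 (adjusted p = 0.0153). Fcna levels in the Lupron tumours were below those of all IgG tumours, and were close to that of IgG replicate 1.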

How the data were processed

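Bulk RNA of tumours was sequenced in 12 libraries, 3 in each of 4 groups, with groups and replicate numbers taken from the sample titles. The authors deposited raw counts for 23479 gene symbols, with no normalization. Per the submitters' processing notes, bcl2fastq 2.20.0.422, cutadapt 1.8.1 and HTSeq 0.6.1 were used on build mm10. Per the labels, the library kit was NuGen Ovation Mouse RNA-Seq. Aligner, annotation and strand setting: not given in the sources used here. Total counts ran from 20584363 to 29965355.

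In R 4.3.3, edgeR 4.0.16 kept 15082 genes over the 4 groups and, after TMM scaling, gave each group its own mean (robust quasi-likelihood, two-sided F test, Benjamini-Hochberg over all genes tested, called under 0.05), on 12 libraries and on 11 without IgG replicate 3. An exact permutation test of 3 libraries against 3 cannot give a p under 0.1. Limits for absent genes were 3 counts over the group and cover counting error only. DESeq2 1.42.0, other scalings and filters, a replicate block and leaving out each library were alternatives. The test was checked on simulated counts. The 47 lists (801 symbols, 4 not in the table, 7 under an older name, 740 tested) are described by counts and medians. Named were the CSF ligands and receptor, Erg, C1q, granzymes and Il33, the called genes or smallest p in each fit without overlap and with a mean of at least 1 CPM, and up to 5 members of each list by p plus every called member; some that the rules give are not reported here, and Cd72, Sbp, Mertk and Trem2 were chosen after their values were seen. The comparison, lists and rules were chosen with earlier results of these data known.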

Additional observations from a re-analysis of the deposited data

How the results depend on the processing

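The count of called genes for anti-CSF1 against IgG depended on the libraries fitted, those with Lupron among them, and on the tool. With all libraries it was 1, and 2 with DESeq2's scaling factors, with upper-quartile factors or with a filter of 1 CPM in 3 libraries (Csf2ra beside Fcna), 0 with only the 2 groups compared, 1841 in DESeq2's test, 4 without IgG replicates 2 and 3, and 0 to 2649 when each library was left out (2649 without IgG replicate 1, 170 without IgG replicate 3). Without IgG replicate 3 it was 170, and 724 in DESeq2's test, 1 with only the 2 groups compared (Crisp1, outside the 170), and 4 to 754 when a further library was left out, with 4 without IgG replicate 2, 44 without anti-CSF1 replicate 3, 82 without anti-CSF1 replicate 2, 100 without Lupron replicate 3 and 754 without IgG replicate 1. Lupron plus anti-CSF1 against Lupron gave 0, and 5, 7, 235, 2 and 5 with DESeq2's factors, upper-quartile factors, DESeq2's test, no filter and the stricter filter, and 0 to 210 leaving out each library. The difference between the effects gave 0, with 188 in DESeq2's test and 0 to 5 leaving out each library. The cause of these shifts was not tested. The direction of Csf1 turned to 0.0564 and 0.22 without anti-CSF1 replicate 2 and without IgG replicate 2, that of Il34 to -0.31 and -0.0673 without IgG replicate 3 and without IgG replicates 2 and 3, that of Gzma to -0.43 and -0.22 without anti-CSF1 replicate 2 and without IgG replicate 1 once IgG replicate 3 was left out, and that of Il1rl1 to 0.82 without IgG replicate 2, and to 0.73 where IgG replicate 3 was left out too. Leaving out each library gave -0.56 to 0.22 for Csf1, -0.31 to 0.89 for Il34 and -5.98 to 0.82 for Il1rl1, and, with IgG replicate 3 already left out, -0.43 to 0.94 for Gzma and -6.97 to 0.73 for Il1rl1.

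With the replicate number as a block, 0 genes were called with all libraries, and 116 without IgG replicate 3, 103 of them among the 170. Same-numbered anti-CSF1 and IgG libraries did not deviate together from their group means (correlations of -0.246, 0.00526 and -0.103). With so few libraries in a group, this check cannot exclude a pairing by number.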

Other observations

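Genes of glycolysis and the hypoxia response had negative estimates in 2 of 21 cases without IgG replicate 3, where 46.9% of all genes did, and the median log2 fold change was 0.92, against 0.03 over all genes and 0.15 for the same list with Lupron. None was called by edgeR, with 3 higher and 2 lower at an unadjusted p under 0.05, where 3.23% of all genes were higher and 10.1% lower. DESeq2 called 1 of the list, lower, against 649 lower over all 15082 genes. The list's level (mean log2 of CPM plus 1) was 6.30, 7.10 and 6.59 in anti-CSF1 libraries, against 6.35, 5.07 and 4.81 in IgG libraries. IgG replicate 1 lay inside the anti-CSF1 range, and with it as the single IgG library the median for anti-CSF1 against IgG was 0.40. Slc2a1, the glucose transporter GLUT1, had 160, 322 and 245 CPM in anti-CSF1 tumours and 179, 47.2 and 34.1 CPM in IgG tumours. The groups overlapped through IgG replicate 1. Pfkfb4, a regulator of glycolysis, ran the other way, at 2.91, 2.74 and 1.70 CPM in anti-CSF1 tumours, against 5.38, 11.1 and 13.8 CPM in IgG tumours (adjusted p = 0.0558 in edgeR's fit without IgG replicate 3).

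Matrix remodelling genes had negative estimates in 4 of 24 cases without IgG replicate 3, where 46.9% of all genes did, with a median of 0.64. None was called by edgeR, with 5 higher and 1 lower at an unadjusted p under 0.05, where 3.23% of all genes were higher and 10.1% lower. DESeq2 called 2 of the list higher and 1 lower, against 75 higher and 649 lower over all 15082 genes. The list's level was 6.20, 6.59 and 6.62 in anti-CSF1 libraries, against 6.28, 5.29 and 3.45 in IgG libraries. IgG replicate 1 again lay inside the anti-CSF1 range, and with it as the single IgG library the median for anti-CSF1 against IgG was 0.27. Spp1, which encodes osteopontin, was at 869, 1520 and 1110 CPM in anti-CSF1 tumours, against 582, 430 and 2.41 CPM in IgG tumours. Mmp9, a gelatinase, had 526, 642 and 879 CPM in anti-CSF1 tumours and 292, 126 and 13.4 CPM in IgG tumours. Both were lowest in IgG replicate 3, and neither passed without it (adjusted p of 0.153 for Spp1 and 0.188 for Mmp9 in edgeR's fit).

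Il1rl1, the receptor of IL-33, stood at 4.03, 7.41 and 3.11 CPM in anti-CSF1 tumours, against 2.92, 611 and 2.55 CPM in IgG tumours, so that IgG replicate 2 alone was high.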
